A study of Arabidopsis thaliana with 8 samples.

Results

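The genes described here are 200 loci of Arabidopsis thaliana with transcript levels in Col that were high in roots relative to callus. They were high again, relative to callus, after 2 weeks on shoot-inducing medium. Of 25686 loci with reads in any library, 8128 had at least 100 unique reads in both Col roots and Col explants after 2 weeks on shoot-inducing medium. The genes were chosen by a score from Col RPKM values alone: the smaller of the 2 high-stage RPKM values plus 0.5, divided by the larger of the 2 callus RPKM values plus 0.5. RPKM is reads per kilobase of transcript, scaled to the unique reads of the library. The score is a ratio and sets no level. Col RPKM of the 200 ran from 6.03 to 3632 in roots and from 5.06 to 1208 after 2 weeks. In callus CYP705A5 reached 133 in Col after 2 days on shoot-inducing medium. The 200 highest scores ran from 57.1 for SWEET11 to 3.46 for AT5G66390, with a median of 5.82. Just inside the threshold lay PSBX at 3.47, CYP705A5 at 3.46 and the peroxidase gene AT5G66390; just outside lay AT5G14880 at 3.44, EP3 at 3.43 and GulLO2 at 3.42. The pattern in Col is therefore what chose the genes and is described without a test. The hag1 libraries took no part in the choice.

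Total RNA was sequenced from the wild type Columbia-0 (Col) and from the hag1 mutant, at 4 stages with 1 library for each genotype and stage. The stages were roots, root explants kept for 4 days on callus-inducing medium (CIM), explants moved from there to shoot-inducing medium (SIM) for 2 days, and explants moved there for 2 weeks. No allele, plant age or number of pooled plants is given in the labels, and 1 library per group means that no ratio within a stage has a replicate check. The 8 libraries held 6.96 to 7.54 M unique reads, where M stands for mega. Reads of HAG1 (AT3G54610), a histone acetyltransferase gene on chromosome 3, were checked first: in the order of the stages above Col had 171, 204, 340 and 156 and hag1 had 21, 8, 16 and 13. Root hair marker genes summed to 789 RPKM in Col roots and 661 in hag1 roots, and stomatal markers to at most 1.71 in any library.

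In this culture system root explants on CIM, which is rich in auxin, form callus along a programme like that of lateral root initiation, and SIM, which is rich in cytokinin, lets shoots arise from it. Differentiated root cells take up nutrients, load them into the vessels, build lignified and suberised walls and make defence compounds such as glucosinolates and triterpenes. HAG1, also known as GCN5, acetylates histone H3 and acts as the catalytic subunit of a coactivator complex. The same abbreviation has also been used for MYB28, a regulator of aliphatic glucosinolate synthesis, which is a different gene.

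Promoters of 9 of the genes are shown because their transcripts are the ones on which the results below turn: genes of the marneral cluster and genes of glucosinolate synthesis, which were low in hag1 after 2 weeks, beside GTR2 and EARLI1, which were as high as in Col. Each is the 250 bases before the start of the deposited TAIR10 gene model, read 5′ to 3′ on the strand of the gene from the RefSeq TAIR10.1 sequence, in which 25455 of 25463 loci found in both annotations overlapped. Capitals mark matches, on either strand, to the motifs whose shares are given after the sequences. The marneral cluster members were MRN1 (chr5:17053267-17053516 on the plus strand), CYP71A16 (chr5:17033727-17033976 on the minus strand) and CYP705A12 (chr5:17025230-17025479 on the minus strand).
MRN1: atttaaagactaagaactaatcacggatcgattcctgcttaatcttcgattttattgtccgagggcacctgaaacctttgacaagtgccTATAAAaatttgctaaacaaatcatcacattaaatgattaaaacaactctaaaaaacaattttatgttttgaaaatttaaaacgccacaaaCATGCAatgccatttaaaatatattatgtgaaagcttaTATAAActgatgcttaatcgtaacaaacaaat
CYP71A16: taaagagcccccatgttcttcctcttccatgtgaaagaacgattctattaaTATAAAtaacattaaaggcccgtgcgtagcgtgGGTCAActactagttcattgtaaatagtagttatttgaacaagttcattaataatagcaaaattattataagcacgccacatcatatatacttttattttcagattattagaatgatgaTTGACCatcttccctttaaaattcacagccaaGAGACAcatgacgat
CYP705A12: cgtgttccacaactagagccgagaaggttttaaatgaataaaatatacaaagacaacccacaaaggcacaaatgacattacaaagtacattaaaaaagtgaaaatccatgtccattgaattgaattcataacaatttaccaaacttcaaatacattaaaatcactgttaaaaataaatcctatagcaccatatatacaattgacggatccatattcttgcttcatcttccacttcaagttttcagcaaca
The glucosinolate genes shown were BCAT4 (chr3:6849498-6849747 on the minus strand), IPMI2 (chr2:17920410-17920659 on the plus strand), CYP79F2 (chr1:5604909-5605158 on the plus strand) and CYP83A1 (chr4:7992312-7992561 on the minus strand). The window of IPMI2 overlaps 1 other locus of the files.
BCAT4: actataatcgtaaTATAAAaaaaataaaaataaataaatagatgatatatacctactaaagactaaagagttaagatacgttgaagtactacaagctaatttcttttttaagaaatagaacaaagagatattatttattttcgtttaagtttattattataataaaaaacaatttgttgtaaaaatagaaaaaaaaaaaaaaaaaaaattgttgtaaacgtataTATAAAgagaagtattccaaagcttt
IPMI2: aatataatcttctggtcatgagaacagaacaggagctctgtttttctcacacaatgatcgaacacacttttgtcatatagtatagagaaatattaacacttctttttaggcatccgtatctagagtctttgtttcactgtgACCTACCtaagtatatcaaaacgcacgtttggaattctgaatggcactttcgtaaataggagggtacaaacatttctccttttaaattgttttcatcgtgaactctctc
CYP79F2: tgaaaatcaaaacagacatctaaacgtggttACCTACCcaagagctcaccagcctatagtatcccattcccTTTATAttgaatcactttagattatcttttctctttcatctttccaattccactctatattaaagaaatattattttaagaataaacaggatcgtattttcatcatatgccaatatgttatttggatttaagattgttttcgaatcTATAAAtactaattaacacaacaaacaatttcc
CYP83A1: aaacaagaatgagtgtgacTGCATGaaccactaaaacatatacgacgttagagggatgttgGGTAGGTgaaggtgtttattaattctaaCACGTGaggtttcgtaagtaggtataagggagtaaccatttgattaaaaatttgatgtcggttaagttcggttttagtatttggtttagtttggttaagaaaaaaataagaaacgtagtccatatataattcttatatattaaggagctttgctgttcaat
The promoters of genes with high levels in both genotypes were GTR2 (chr5:25167944-25168193 on the minus strand) and EARLI1 (chr4:7406938-7407187 on the minus strand).
GTR2: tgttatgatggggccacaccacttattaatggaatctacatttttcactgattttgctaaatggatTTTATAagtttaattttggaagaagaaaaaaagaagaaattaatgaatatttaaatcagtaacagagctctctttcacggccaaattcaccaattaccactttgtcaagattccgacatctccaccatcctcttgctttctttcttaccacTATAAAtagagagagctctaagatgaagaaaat
EARLI1: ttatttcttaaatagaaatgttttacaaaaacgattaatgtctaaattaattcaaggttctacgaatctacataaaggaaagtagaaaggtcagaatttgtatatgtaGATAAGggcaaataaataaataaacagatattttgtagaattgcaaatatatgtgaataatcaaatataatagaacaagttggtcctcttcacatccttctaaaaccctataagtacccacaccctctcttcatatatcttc

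Over all 200 genes, CATGCA was present in the promoters of 32 (16%), against 5.75% of the 8111 promoters of the same length from loci open to the rule, and TATAAA in 136 (68%) against 46.6%. GATAAG was found in 32 (16%) against 11.6%, TGTCTC in 25 (12.5%) against 11.2% and ACCTACC in 3 (1.5%) against 1.28%. CACGTG was found in 14 (7%) against 9.11%, TTGACC or TTGACT in 55 (27.5%) against 30.5% and GCCGCC in 1 (0.5%) against 2.35%. All 3 promoters with ACCTACC belonged to glucosinolate genes, those of CYP79F2, CYP83A1 and IPMI2 printed above. These matches were searched as letters only and were not tested.

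The genes followed the same course in hag1 as far as the callus, and a smaller number came back. Of the 200, 182 had a root RPKM at least 2-fold above the larger callus value in hag1 roots, and 126 were at least 2-fold above it again after 2 weeks on SIM (both on RPKM + 0.5), which is called regained from here on. Among the 10522 loci whose reads reached 100 in hag1 roots or in the hag1 library of 2 weeks, of which 190 were among the 200, these shares were 14.6% and 7.06%. Loss and regain together held for 117 of the 200, against 3.64% of those loci. The median RPKM of the 200 genes was 59.1 in Col roots, 3.04 on CIM, 3.72 after 2 days on SIM and 46.0 after 2 weeks. In hag1 these medians were 44.5, 2.78, 4.62 and 17.3. Together the genes took 4.17% (Col) and 3.19% (hag1) of unique reads in roots, 0.197 to 0.376% in the 4 callus libraries, and 2.48% in Col and 1.70% in hag1 after 2 weeks. In whole explants fewer cells of a type and less RNA per cell cannot be told apart. Where 4 values are given for a gene in each genotype, they are RPKM in roots, on CIM, after 2 days on SIM and after 2 weeks on SIM, and a log2 ratio is hag1 over Col with an interval for counting error only.

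**Figure D1:**
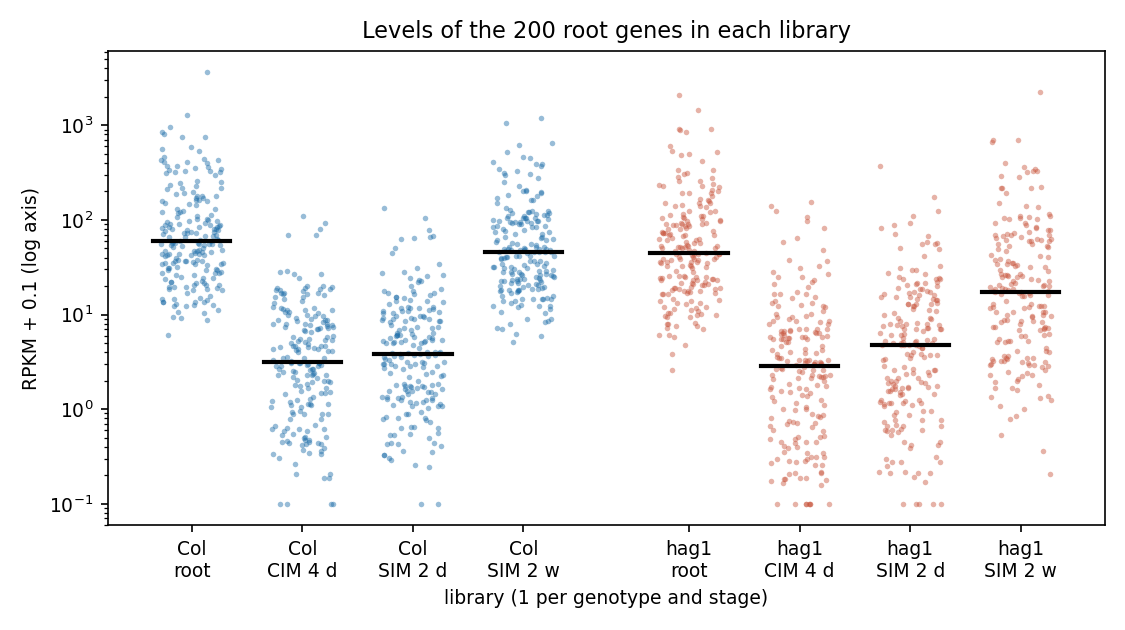
RPKM + 0.1 on a log axis of each of the 200 genes (points) in the 8 libraries, with the median as a black bar; blue is Col and red is hag1. The median is 59.1 in Col roots, 3.04 and 3.72 in callus and 46.0 after 2 weeks, against 44.5, 2.78, 4.62 and 17.3 in hag1.

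The extent of the regain differed widely between genes. After 2 weeks on SIM the hag1 level (RPKM + 0.5) was below 10% of the Col level for 16 genes, 10 to 25% for 47, 25 to 50% for 57, 50 to 100% for 54, and at least as high as Col for 26. In roots the same bands held 2, 4, 38, 105 and 51 genes. Against its own root (here and below also on RPKM + 0.5), the median level after 2 weeks was 77.5% in Col and 39.2% in hag1; 136 genes reached at least 50% of the root level in Col and 85 in hag1. As a log2 ratio of the hag1 percent of root to that of Col, the median was -1.07 over the 200 genes. Over the 8128 loci open to the rule it was -0.18. The 200 genes were chosen for high Col values at these stages, so a ratio of hag1 to Col leans low by construction.

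Read as TMM-scaled counts, 115 of the 200 were at least 2-fold below Col in hag1 after 2 weeks and 3 at least 2-fold above, against 11.6% and 2.6% of the 12186 loci with at least 50 reads in either library. In roots 60 were at least 2-fold below and 6 above, against 7.83% and 4.41% of 12819 loci. Of the 115, 44 were also at least 2-fold below Col in roots and 71 were low after 2 weeks without being so in roots; 16 were low in roots alone and 69 at neither stage. The median log2 ratio over the 200 was -0.54 in roots and -1.25 after 2 weeks, beside -0.05 and 0.04 over all loci with at least 50 reads. In callus, where the rule asks for levels low against the other stages, many genes had few reads. On CIM 87 genes had at least 50 in either library, of which 19 were lower and 27 higher by 2-fold (7.63% and 5.01% of 12495 loci). After 2 days on SIM it was 7 and 36 of 100 (9.61% and 5.48% of 12470). The genes were chosen for low Col values in callus, so a ratio of hag1 to Col leans high there by construction. A gene could also reach 50 reads through the hag1 library alone.

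The choice was also made the other way round. When the same rule was applied to hag1 in place of Col, it gave 200 loci of which 72 (36%) were shared with the genes described here. Of these 200 loci, 8 were at least 2-fold higher in hag1 than in Col after 2 weeks, the direction in which that choice leans, and 35 were at least 2-fold lower. Of the loci chosen in hag1, 175 were regained in Col, against the 126 of 200 chosen in Col that were regained in hag1. Over loci whose reads reached 100 in Col roots or in the Col library of 2 weeks the share regained in Col was 12.6%.

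**Figure D2:**
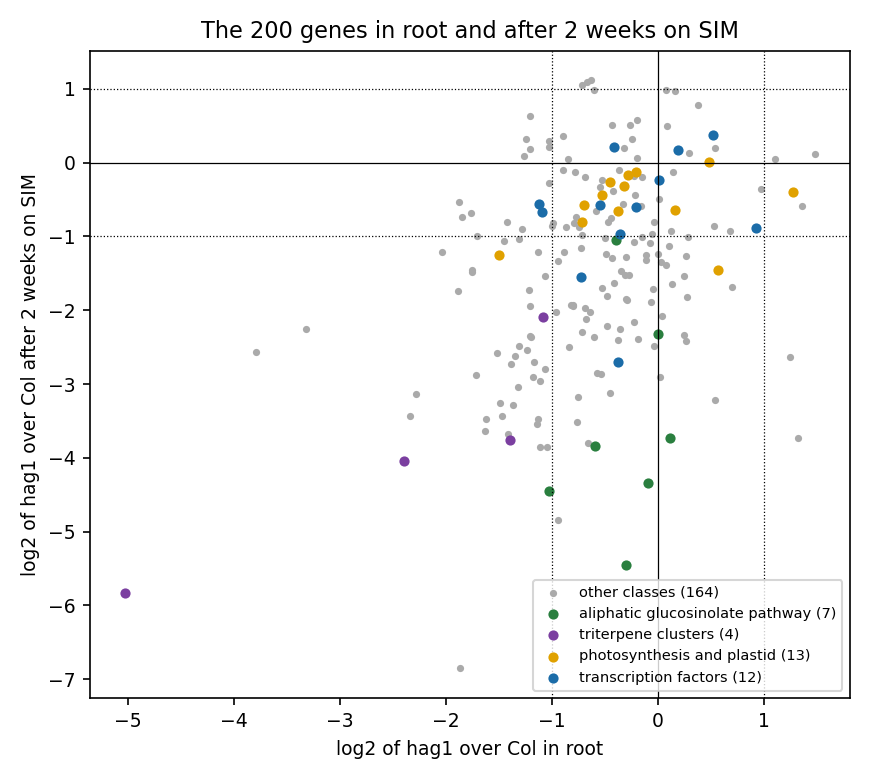
Each point is 1 of the 200 genes, with the log2 ratio of hag1 to Col in roots on the x axis and after 2 weeks on SIM on the y axis; dotted lines mark 2-fold. Glucosinolate genes lie at -1.03 to 0.12 in roots and at -1.05 to -5.45 after 2 weeks, triterpene genes are low on both axes, and photosynthesis genes lie closer to 0.

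Tests across libraries were possible only with stages standing in for replicates. In hag1 alone, the CIM and 2-day SIM libraries were set against roots and 2 weeks on SIM. All 196 genes tested had a negative estimate, with a median log2 difference of -3.29, beside -0.04 over the 16780 loci tested. The edgeR quasi-likelihood test called 0 of them, and 0 loci in all (0.0%), at an adjusted p under 0.05; the lowest adjusted p of the genes was 0.383. At an unadjusted p under 0.05, 125 of the 196 were lower in callus, against 6.1% of loci, and the DESeq2 Wald test called 118 lower at an adjusted p under 0.05, against 2.79%. The 4 genes not tested, SWEET12, CYP79F2, MRN1 and NAS1, failed the low-count filter. SWEET12, CYP79F2 and MRN1 had 231, 161 and 111 reads in hag1 roots but 7, 6 and 5 after 2 weeks. All 4 were among the 8 genes with the lowest ratio of hag1 to Col after 2 weeks. SWEET11 had a log2 difference of -7.45 (SE 0.50, edgeR adjusted p = 0.383). The labels do not say whether the libraries derive from separate cultures, and the p-values reflect no more than how these libraries vary.

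Over the 4 stages 2 of the 200 genes fell in hag1 and 0 rose, against 0.192% and 0.241% of 18710 loci (edgeR adjusted p under 0.05). The 2 were MRN1 and AT4G28940, the latter named only after its values were seen. This fit includes the Col libraries that chose the genes. At an unadjusted p under 0.05, 63 were lower and 4 higher, against 12.8% and 7.72% of loci, and the DESeq2 Wald test called 39 lower and 2 higher at an adjusted p under 0.05, against 4.68% and 1.89%. Both calls were lost without any 1 of the 4 callus libraries or the hag1 library of 2 weeks, where edgeR called 0 loci.

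The genes of aliphatic glucosinolate synthesis were far below Col in hag1 after 2 weeks, and 6 of 7 were within 2-fold of Col in roots. These enzymes lengthen the side chain of methionine and turn it into glucosinolates, sulphur-rich defence compounds of the cabbage order. The class held 7 of the 200 genes; all 7 were at least 2-fold below Col after 2 weeks, 6 of them at least 4-fold, and CYP83A1 was so in roots too. The median log2 ratio of hag1 to Col was -0.30 in roots and -3.84 after 2 weeks. In Col all 7 exceeded 50% of their root level after 2 weeks, with a median of 317%, and in hag1 3 did, with a median of 33.0%.

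Chain elongation begins with BCAT4, a branched-chain aminotransferase that acts on methionine (AT3G19710, chromosome 3, 6846969 to 6849497, reverse strand). Its RPKM was 13.6 in root, 0.414 on CIM, 0.396 after 2 days on SIM and 46.0 after 2 weeks in Col, against 16.2, 0, 0.210 and 3.26 in hag1. The root levels of the genotypes were close, while after 2 weeks the log2 ratio was -3.74 (95% interval -4.29 to -3.22). IMS2, also named MAM3, condenses the keto acid with acetyl-CoA. Its RPKM was 54.9 in root, 0.785 on CIM, 0.225 after 2 days on SIM and 61.2 after 2 weeks in Col, against 56.6, 0.156, 0.318 and 2.85 in hag1. IMS2 came back to 111% of its root level in Col and to 5.88% in hag1, with a log2 ratio of -4.34 (95% interval -4.85 to -3.87) after 2 weeks and -0.10 (95% interval -0.24 to 0.05) in roots. The isomerase subunit genes IPMI1 and IPMI2 act on the product. IPMI1 stood at 12.7, 0.340, 0.543 and 41.2 in Col and 9.23, 0.112, 0.345 and 2.71 in hag1, in the same order of stages. IPMI2 stood at 18.7, 2.19, 1.05 and 84.6 in Col and 20.6, 2.72, 3.75 and 16.0 in hag1. Their log2 ratios after 2 weeks were -3.84 and -2.32, and the root ratio of IPMI2 was 0.00 (95% interval -0.34 to 0.34).

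The core of the molecule is made by cytochromes P450. CYP79F2 turns elongated methionine into aldoximes (AT1G16400, chromosome 1, 5605159 to 5607473, forward strand) and had RPKM values of 13.4, 0, 0.144 and 19.9 in Col and 12.02, 0.0745, 0.152 and 0.432 in hag1. It had 260 reads in Col and 6 in hag1 after 2 weeks, a log2 ratio of -5.45 (95% interval -6.91 to -4.30). CYP83A1, which oxidises the aldoximes, had 10.6, 0.488, 0.156 and 70.5 in Col and 5.74, 0.0806, 0.495 and 3.04 in hag1, and a ratio of -4.46 (95% interval -4.96 to -3.99). CYP79F1 is a near-identical neighbour of CYP79F2, and reads that both share are uncertain. SOT18, a sulfotransferase of the last core step, had 60.6, 10.7, 8.94 and 89.6 in Col and 50.6, 16.2, 16.2 and 41.0 in hag1. Its gap after 2 weeks was the smallest of the 7, at -1.05 (95% interval -1.23 to -0.87).

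Other genes of the pathway were looked up after these values were seen, so their counts are a description. Of 20 listed genes 19 had reads in a library, 9 were open to the rule and 7 are among the 200. Outside the 200, MAM1, the neighbour and relative of IMS2, had 7.51, 0.163, 0.391 and 82.0 in Col and 4.62, 0.0809, 0.248 and 3.05 in hag1. GSTU20, a glutathione transferase of the pathway, had 14.4, 2.20, 6.62 and 141 in Col and 7.64, 1.09, 0.637 and 5.86 in hag1. Each had 98 reads in Col roots, under the 100 that the rule asks for, and after 2 weeks their log2 ratios were -4.67 and -4.51. MYB28, the regulator, had 0.646, 0, 0 and 2.65 in Col and 0.487, 0, 0.0793 and 0 in hag1. Its reads were few, with 8 in Col and 6 in hag1 in roots and 32 and 0 after 2 weeks. SOT17, a sulfotransferase like SOT18, had a log2 ratio of -0.17 after 2 weeks. IIL1, also on the list, was not lost in callus and stood at -0.05 after 2 weeks. Its RPKM was 173, 199, 195 and 291 in Col and 162, 217, 223 and 266 in hag1. In all, 9 of 11 listed genes with at least 50 reads after 2 weeks were at least 2-fold lower in hag1 and 0 higher, with a median log2 ratio of -3.84. None of the 15 tested passed over the stages in edgeR (4 at an unadjusted p under 0.05, all lower).

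GTR2, a glucosinolate importer of the plasma membrane (AT5G62680, chromosome 5, 25165137 to 25167943, reverse strand), was at or above the Col level in hag1 after 2 weeks. Its RPKM was 233 in root, 9.60 on CIM, 11.9 after 2 days on SIM and 622 after 2 weeks in Col, against 111, 13.0, 57.1 and 671 in hag1. In hag1 it was lower than in Col in roots, at -1.21 (95% interval -1.29 to -1.13), and above Col after 2 weeks, at 0.19 (95% interval 0.15 to 0.23). HOL1, a methyltransferase that acts on thiocyanate from glucosinolate breakdown, had 14.4, 1.92, 2.40 and 18.2 in Col and 10.2, 0.292, 6.57 and 37.0 in hag1. At 1.12 (95% interval 0.80 to 1.44) it was the highest of the 200 by its ratio after 2 weeks. AT2G25450, annotated as a 2-oxoglutarate and iron dependent oxygenase, had 749, 69.7, 106 and 1208 in Col and 921, 125, 375 and 2229 in hag1, and AT2G31790, a UDP-glycosyltransferase family gene, 13.5, 1.04, 0.996 and 30.6 in Col and 10.8, 0.945, 0.439 and 3.32 in hag1. The former was 0.96 and the latter -3.13 on the log2 scale against Col after 2 weeks.

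**Figure D3:**
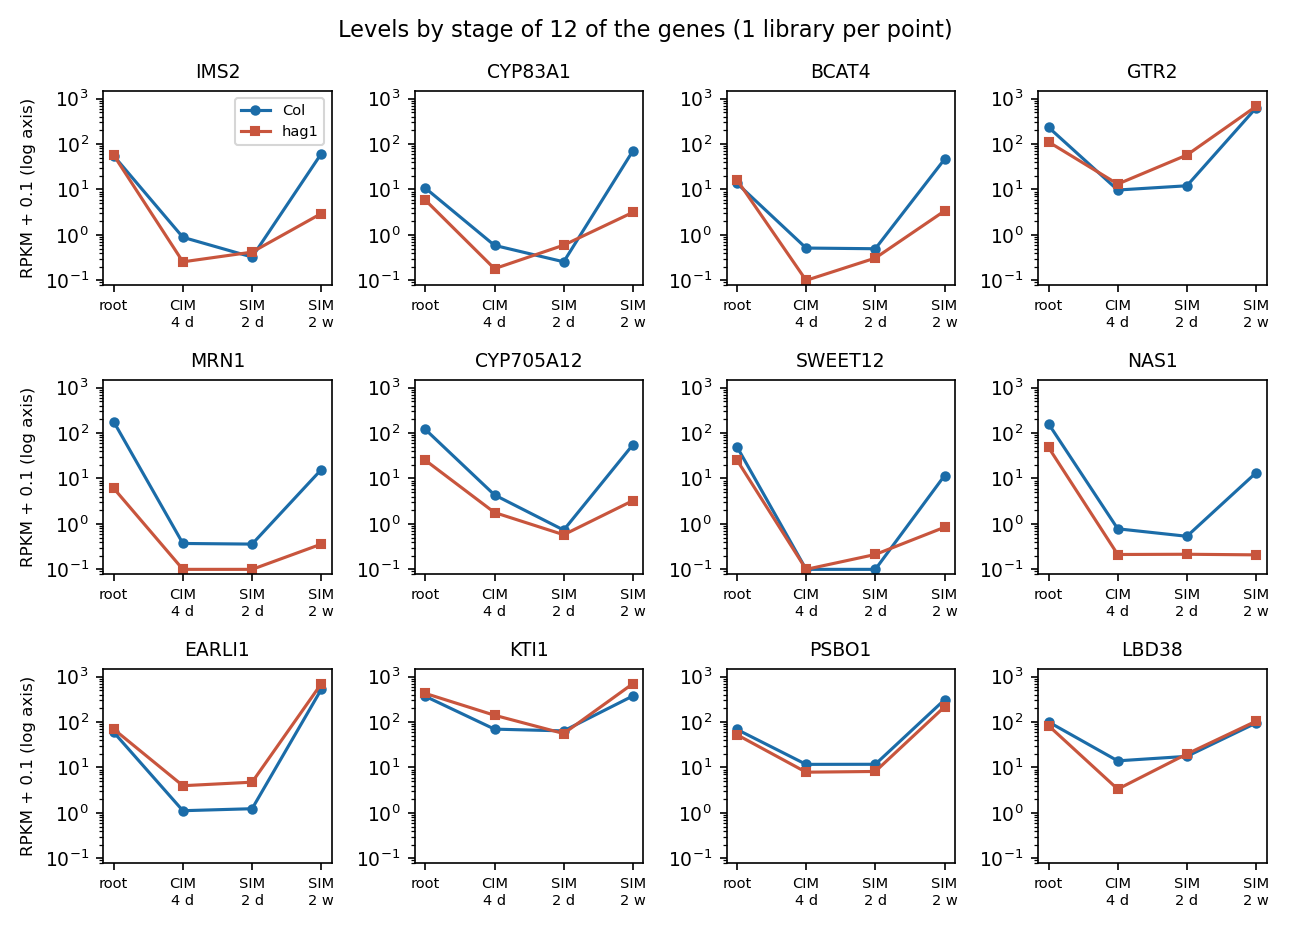
RPKM + 0.1 on a log axis of 12 of the genes at the 4 stages, 1 library per point, with Col in blue and hag1 in red. IMS2 and BCAT4 nearly meet in roots and lie apart after 2 weeks, as CYP83A1 does, MRN1 and CYP705A12 are apart already in roots, and GTR2, EARLI1, KTI1, PSBO1 and LBD38 are close or higher in hag1 after 2 weeks.

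Triterpene genes were below Col in hag1 in roots and after 2 weeks, with class median log2 ratios of -1.90 and -3.91. In callus MRN1 had 0 reads in hag1 and so no ratio. The medians without it were -0.00 on CIM and 0.01 after 2 days on SIM. The genes differed on CIM: CYP705A12 had 45 reads in Col and 18 in hag1, CYP71A16 116 and 108, and CYP705A5 220 and 249. Triterpenes are made in roots by small clusters of adjacent genes, each with an oxidosqualene cyclase and enzymes that modify its product. The class held 4 of the 200 genes, of which 4 were at least 2-fold lower in hag1 in roots and at least 4-fold lower after 2 weeks, and 0 were regained. Sorting by words left out AT5G47950, described below, which is counted with the acyltransferases. It was regained in hag1, at 7.57-fold the larger callus value and 209% of its own root level. MRN1, the marneral synthase (AT5G42600, chromosome 5, 17053517 to 17058245, forward strand), had RPKM values of 177 in root, 0.271 on CIM, 0.260 after 2 days on SIM and 15.6 after 2 weeks in Col, against 5.97, 0, 0 and 0.259 in hag1. Its reads numbered 3480 (Col) and 111 (hag1) in roots, 5 and 0 in each pair of callus libraries, and 282 and 5 after 2 weeks. The log2 ratio was -5.03 (95% interval -5.31 to -4.76) in roots and -5.83 (95% interval -7.46 to -4.59) after 2 weeks, and the fall over the stages was -5.25 (SE 0.26, edgeR adjusted p = 0.0101).

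The neighbours of MRN1 on chromosome 5 encode P450 enzymes. CYP71A16, which oxidises marneral (17031111 to 17033726), had 125, 9.72, 4.89 and 57.5 in Col and 52.3, 8.96, 7.72 and 4.01 in hag1. CYP705A12, a P450 of the same cluster (17023646 to 17025229), had 119.8, 4.24, 0.631 and 55.1 in Col and 25.05, 1.68, 0.477 and 3.15 in hag1. After 2 weeks they stood at 46.2% and 46.2% of the root level in Col and at 8.53% and 14.3% in hag1. Their log2 ratios were -1.40 and -2.40 in roots and -3.76 and -4.05 after 2 weeks. From 2 days to 2 weeks on SIM, CYP71A16 went from 4.89 to 57.5 RPKM in Col and from 7.72 to 4.01 in hag1.

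A second cluster on chromosome 5 makes thalianol. CYP705A5, also named THAD (AT5G47990, chromosome 5, 19434827 to 19436689, forward strand), a desaturase of the thalianol pathway, had 540.0, 17.4, 133 and 462 in Col and 281, 19.6, 124 and 102 in hag1. The acyltransferase family gene AT5G47950, within 20 kb of it, had 46.4, 1.02, 1.34 and 52.1 in Col and 3.70, 0.554, 0.661 and 8.29 in hag1. AT5G47950 had a wider gap in roots (-3.79) than after 2 weeks (-2.57), unlike CYP705A5 (-1.08 and -2.09). The synthase gene THAS1, outside the 200, stood at 12.1, 0.623, 5.21 and 15.3 in Col and 9.56, 1.18, 7.23 and 3.96 in hag1. All 8 genes listed for both clusters, a list drawn up after the values were seen that holds 5 of the 200, were at least 2-fold lower in hag1 after 2 weeks, with a median log2 ratio of -2.65, and 1 of 8 tested, MRN1, passed over the stages.

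Photosynthesis and plastid genes came back in both genotypes. These encode parts of the light reactions, of the carbon cycle and of plastid metabolism. Of 13 genes in the class 12 were regained in hag1 and all 13 were above 50% of their own root level in either genotype. The median level after 2 weeks was 343% of root in Col and 242% in hag1, and the median log2 ratio of hag1 to Col was -0.44. PSBR, a subunit of photosystem II, had 132 in root, 10.99 on CIM, 13.3 after 2 days on SIM and 342 after 2 weeks in Col, against 89.6, 8.35, 15.1 and 217 in hag1. The oxygen-evolving protein gene PSBO1 had 68.4, 11.6, 11.6 and 308 in Col and 52.4, 7.76, 8.05 and 215 in hag1, and PSBX, another photosystem subunit, 37.0, 10.3, 8.37 and 200.3 in Col and 57.0, 12.2, 29.5 and 190.4 in hag1. The plastocyanin gene DRT112 had 24.8, 5.74, 6.07 and 190.3 in Col and 30.6, 6.28, 6.89 and 115 in hag1 and CP12-1, a regulator of the carbon cycle, 83.4, 11.3, 13.9 and 127 in Col and 79.8, 5.74, 5.14 and 110.1 in hag1. Each of these 5 was within 2-fold of Col after 2 weeks.

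The light-harvesting genes CAB1 and LHB1B2 had larger gaps. CAB1 had 74.3, 18.0, 16.3 and 644 in Col and 121, 13.8, 14.3 and 222 in hag1, and LHB1B2 90.9, 8.51, 8.41 and 170.4 in Col and 35.6, 6.56, 9.18 and 67.5 in hag1. They were the only 2 of the class at least 2-fold lower in hag1 after 2 weeks, at -1.46 and -1.26; both belong to a family of near-identical copies, so reads among copies are uncertain. THI1, a thiamine synthesis enzyme, had 27.1, 6.45, 5.03 and 406 in Col and 72.2, 8.30, 17.6 and 292 in hag1. Of the 33 genes of a wider photosynthesis list, 4 are among the 200 and 13 were open to the rule. Of its 29 genes tested in hag1, 0 were called by edgeR between callus and the other stages and 26 were lower in callus at an unadjusted p under 0.05. After 2 weeks 13 of 30 with enough reads were below Col by at least 2-fold in hag1, and the median log2 ratio was -0.78. Its light-harvesting genes with enough reads differed widely, from -2.64 for LHCB1.1 to -0.52 for LHCB4.1.

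Of 12 transcription factor genes, 10 were regained in hag1 and 2 were at least 2-fold lower than Col after 2 weeks, with a median log2 ratio of -0.59. LBD38, a LOB-domain repressor of nitrogen-responsive genes, had 100.2 in root, 13.9 on CIM, 17.4 after 2 days on SIM and 94.9 after 2 weeks in Col, against 83.0, 3.23, 19.7 and 104 in hag1. WRKY14 had 54.0, 3.01, 3.79 and 26.1 in Col and 51.5, 7.84, 14.2 and 16.3 in hag1 and MYBC1, a MYB-like factor, 47.3, 7.27, 11.7 and 97.8 in Col and 52.6, 9.52, 6.87 and 78.5 in hag1. Of these 3 WRKY14 was not regained in hag1, where its RPKM after 2 days on SIM was 14.2. GTL1, a trihelix factor that restrains root hair growth, had 44.0, 1.24, 2.89 and 33.1 in Col and 33.1, 0.426, 3.38 and 21.1 in hag1. The factors at least 2-fold lower were IDD5, at -2.70, and BEL1, at -1.56; they and GTL1 were chosen after their values were seen.

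Of 24 transport genes, 14 were regained in hag1, 14 were at least 2-fold lower than Col after 2 weeks and 12 in roots. SWEET11 and SWEET12 export sucrose for phloem loading. SWEET11 (AT3G48740, chromosome 3, 18052466 to 18054755, reverse strand) had 72.7 in root, 0.108 on CIM, 0.310 after 2 days on SIM and 45.7 after 2 weeks in Col, against 23.7, 0.107, 0.109 and 15.5 in hag1. It regained 63.2% of its root level in Col and 66.1% in hag1, with log2 ratios of -1.76 in roots and -1.48 after 2 weeks. SWEET12 had 49.9, 0, 0 and 11.4 in Col and 25.5, 0, 0.113 and 0.743 in hag1, with 101 and 7 reads after 2 weeks. Against Col, SWEET12 in hag1 stood at -1.11 (95% interval -1.34 to -0.88) on the log2 scale in roots and at -3.86 (95% interval -5.21 to -2.76) after 2 weeks. PP2-A1, a phloem lectin gene counted among the other genes, had 74.3, 16.2, 9.02 and 112 in Col and 194, 32.2, 23.7 and 17.1 in hag1; it was above Col in hag1 roots and at -2.63 after 2 weeks.

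Several transport genes serve nutrients. NRT1.5, which loads nitrate into the xylem, had 854 in root, 0.965 on CIM, 0.431 after 2 days on SIM and 13.7 after 2 weeks in Col, against 193, 0.892, 0.587 and 1.48 in hag1. NAS1, which makes the metal chelator nicotianamine, had 159.7, 0.680, 0.434 and 13.3 in Col and 48.2, 0.112, 0.115 and 0.108 in hag1. NAS1 had 115 reads in Col and 1 in hag1 after 2 weeks, a log2 ratio of -6.85 (95% interval -12.17 to -4.35), the lowest of the 200. NIP5;1, a channel for boric acid, had 29.4, 2.79, 4.36 and 26.9 in Col and 23.1, 1.66, 4.70 and 7.28 in hag1. ZIP3 and CHX17, named after their values were seen, carry zinc and cations and were lower in hag1 after 2 weeks than on CIM, with 36.8, 2.45, 1.53 and 17.5 in Col and 14.2, 6.86, 3.89 and 2.75 in hag1 for ZIP3. RD28, the aquaporin PIP2;3, had 179, 0.862, 6.25 and 40.6 in Col and 53.7, 0, 1.62 and 26.6 in hag1, and TIP4;1 96.5, 0.242, 1.74 and 22.4 in Col and 86.3, 0.240, 0.859 and 5.91 in hag1. Of 19 listed aquaporins, 3 of 17 tested fell over the stages in edgeR, PIP2;2, PIP2;4 and TIP1;2, none of them among the 200.

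The cell wall class held 21 genes, 13 of them regained in hag1 and 13 at least 2-fold lower than Col after 2 weeks, with 8 lower in roots. The extensin-like genes AT3G28550 and AT1G23720, whose products crosslink in the wall, led in Col roots. AT3G28550 had 747, 0.526, 31.1 and 164 in Col and 500.1, 0.738, 26.6 and 78.5 in hag1, and AT1G23720 565, 1.17, 22.8 and 118 in Col and 489, 0.388, 13.0 and 40.3 in hag1. Both were already above their CIM level after 2 days on SIM in both genotypes; the extensin genes AT3G54580 and HRGP1 lie within 20 kb of each other, and such repeats share sequence, so their reads are uncertain. AGP24, an arabinogalactan protein gene, had 433, 19.6, 34.0 and 205 in Col and 240.5, 37.0, 68.0 and 110.2 in hag1. ELP, an extensin-like gene, had 369.8, 1.45, 2.15 and 73.7 in Col and 124, 2.55, 2.28 and 9.53 in hag1, and EXPA17, an expansin that loosens walls, 53.5, 0.368, 0.704 and 31.3 in Col and 25.01, 0.182, 0.559 and 5.10 in hag1. ELP and EXPA17 were at -2.87 and -2.53 after 2 weeks. AT5G19730, a pectin lyase-like gene, had 16.9, 0.106, 0.202 and 27.9 in Col and 5.98, 0, 0.321 and 2.12 in hag1 and kept 9.25% of the Col level after 2 weeks.

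Peroxidases and laccases crosslink and lignify walls. The class of 13 had a median RPKM of 316 in Col roots and 4.39 on CIM, and of 202.81 and 3.96 in hag1. After 2 weeks the median was 19.4% of the root level in Col and 6.02% in hag1; 8 of 13 were regained and 9 were at least 2-fold below Col. PER64, which lignifies the Casparian strip, had 187 in root, 0.690 on CIM, 5.17 after 2 days on SIM and 22.6 after 2 weeks in Col, against 98.2, 0.341, 1.16 and 3.08 in hag1, a ratio of -2.79 after 2 weeks. AT5G64100 had 463, 18.9, 8.18 and 83.9 in Col and 605, 65.1, 21.7 and 15.7 in hag1. Its level in hag1 was higher than Col in roots and lower after 2 weeks than on CIM. AT4G30170 had 437, 0.235, 4.94 and 84.3 in Col and 529.6, 0.116, 2.38 and 25.6 in hag1, whereas AT4G33420 had 413, 8.14, 3.95 and 80.6 in Col and 224, 2.22, 2.51 and 93.0 in hag1 and AT2G37130 68.3, 1.56, 2.90 and 39.6 in Col and 97.7, 3.49, 5.05 and 64.2 in hag1. The latter pair returned above Col in hag1, at 0.29 and 0.78.

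Among defence and lipid transfer genes, EARLI1 and AZI1 are adjacent genes for lipid transfer-like proteins, AZI1 being known from the priming of defence. EARLI1 (AT4G12480, chromosome 4, 7406105 to 7406937, reverse strand) had 59.4 in root, 1.02 on CIM, 1.14 after 2 days on SIM and 521 after 2 weeks in Col, against 69.5, 3.86, 4.64 and 695 in hag1. Its level after 2 weeks was 135-fold the larger callus value in hag1, the highest of the 200. AZI1 had 57.6, 0.354, 1.69 and 393 in Col and 18.8, 0.7003, 1.43 and 136 in hag1, so that the adjacent genes differed in their ratio after 2 weeks, 0.50 (95% interval 0.43 to 0.56) against -1.45 (95% interval -1.57 to -1.33). The trypsin inhibitor gene KTI1 had 367, 69.5, 63.6 and 374 in Col and 425, 140.5, 55.6 and 697 in hag1, 0.98 against Col after 2 weeks. MLP329, a major latex protein-like gene, had 1278, 19.0, 14.3 and 278 in Col and 1443, 58.1, 18.4 and 62.1 in hag1 and AT4G23680, of a related family, 375, 7.33, 63.4 and 226 in Col and 158, 1.86, 58.9 and 32.4 in hag1. Neither of these last was regained in hag1. Of the 9 genes of the class 6 were regained and 6 were at least 2-fold lower than Col.

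Glycosyltransferases, P450s and acyltransferases numbered 13, with a median log2 ratio of -2.39 after 2 weeks; 11 were at least 2-fold lower in hag1 and 9 were regained. The acyltransferase family gene AT4G15390 had 298, 7.91, 3.56 and 123 in Col and 226, 3.21, 3.67 and 16.0 in hag1. UGT72E1, which glucosylates phenylpropanoids, had 118, 2.54, 1.65 and 14.3 in Col and 46.8, 0.0811, 0.498 and 1.25 in hag1, and AT3G46700, of the same family, 197, 15.1, 50.5 and 183 in Col and 179, 37.5, 82.5 and 60.2 in hag1. CYP71B26 had 36.4, 0.0871, 0.333 and 21.4 in Col and 13.1, 0.172, 1.06 and 1.83 in hag1. Of 11 hydrolases and proteases 3 were regained, and all 11 were at least 2-fold below Col after 2 weeks. AT4G11320, a papain-like cysteine protease, had the highest Col root value of the 200, with 3632 in root, 8.69 on CIM, 10.4 after 2 days on SIM and 123 after 2 weeks in Col, against 2083, 1.57, 1.80 and 4.06 in hag1. After 2 weeks it stood at 3.40% of its root level in Col and at 0.219% in hag1. AT5G44020, an acid phosphatase family gene, had 593, 0.374, 2.27 and 25.6 in Col and 312, 0.247, 1.64 and 8.35 in hag1, and AT3G62040, a haloacid dehalogenase-like gene, 398, 5.86, 1.40 and 22.9 in Col and 277, 3.39, 0.660 and 1.56 in hag1.

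Of 20 genes for peptides, receptors and signalling, 13 were regained in hag1 and 10 were at least 2-fold lower than Col after 2 weeks. PSK2, a precursor of the growth peptide phytosulfokine, had 217, 16.9, 44.5 and 249 in Col and 104, 14.9, 92.3 and 365 in hag1. It was below Col in hag1 roots and above it after 2 weeks (-1.21 and 0.63). RALFL32, a precursor of an alkalinising peptide, had 194, 16.4, 27.8 and 104 in Col and 166, 4.58, 16.7 and 92.1 in hag1, while its neighbour AT4G14020, of the same family, stood at -3.22 after 2 weeks. ANNAT4, an annexin, had 145, 18.3, 17.0 and 112 in Col and 43.0, 15.1, 29.8 and 31.8 in hag1. ATL8, a RING finger gene, had 55.6, 7.78, 15.1 and 54.1 in Col and 40.2, 4.55, 24.5 and 101.44 in hag1.

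Among other enzymes, 14 of 21 were regained and 11 were at least 2-fold below Col after 2 weeks. AT4G28940, a phosphorylase superfamily gene (chromosome 4, 14274341 to 14277095, forward strand), had 79.8 in root, 15.2 on CIM, 11.6 after 2 days on SIM and 77.8 after 2 weeks in Col, against 17.4, 3.13, 1.88 and 6.78 in hag1. It was lower in hag1 in all 4 stages and fell over them (log2 -2.63, SE 0.25, edgeR adjusted p = 0.0409). AAE3, an oxalyl-CoA synthetase, had 349, 79.3, 65.9 and 332 in Col and 336, 96.3, 109 and 329 in hag1, and PLAT2, a PLAT-domain gene, 330.4, 8.603, 20.1 and 93.0 in Col and 260.1, 3.02, 11.3 and 19.0 in hag1. AT1G60680, an oxidoreductase gene with the second highest score, had 92.6, 0.325, 1.14 and 70.9 in Col and 111, 0.215, 0.110 and 35.1 in hag1. DJ1F had 19.6, 0.355, 0.255 and 20.9 in Col and 9.77, 0.351, 0.629 and 1.70 in hag1.

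Of the 32 other genes, 18 were regained and 15 were at least 2-fold lower. DOT1, a glycine-rich protein gene, had 958, 9.06, 6.83 and 296 in Col and 846, 2.04, 1.53 and 322 in hag1, at 0.20 after 2 weeks. AT5G20700 had 815, 93.0, 67.4 and 1061 in Col and 918, 108, 89.2 and 396 in hag1 and AT3G17020 429.7, 111, 77.3 and 394 in Col and 522, 154, 174 and 341 in hag1. The TRAF-like gene AT3G20380 had 27.4, 0.208, 0.697 and 26.4 in Col and 18.4, 2.37, 1.58 and 51.7 in hag1 and the glycine-rich pseudogene AT3G17110 34.7, 2.96, 5.97 and 36.3 in Col and 23.96, 0.488, 0.666 and 73.2 in hag1. These last, with HOL1, were the 3 genes at least 2-fold above Col in hag1 after 2 weeks.

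**Figure D4:**
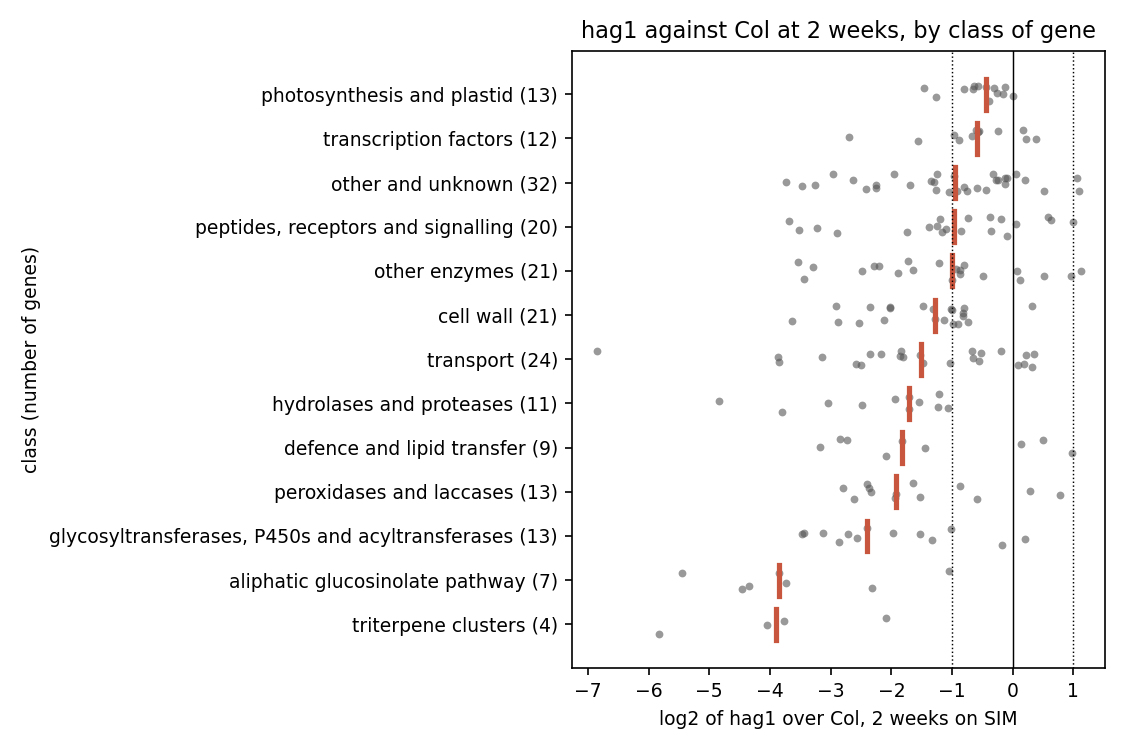
Log2 ratio of hag1 to Col after 2 weeks on SIM for each of the 200 genes (points), by class with the number of genes, and class medians as red bars; dotted lines mark 2-fold. Medians run from -3.91 for triterpene clusters and -3.84 for glucosinolate synthesis to -0.44 for photosynthesis.

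Marker lists of root cell types were low beside the genes. After 2 weeks 13 of 14 endodermis and suberin genes with at least 50 reads were at least 2-fold lower in hag1. So were 8 of 10 root hair, 8 of 10 xylem and secondary wall and 7 of 8 phloem and sugar export genes, and 0 were higher. Over all loci with at least 50 reads, 11.6% were lower and 2.6% higher. In the order of the stages, summed RPKM of the endodermis and suberin list was 1627, 604, 619 and 837 in Col and 844, 783, 547 and 262 in hag1. That sum mixes opposite courses. From root to CIM in Col, the Casparian strip gene CASP1 went from 392 to 0.496 and the suberin gene FAR1 from 19.3 to 114. For xylem the summed RPKM was 864, 176, 129 and 95.5 in Col and 624, 74.7, 66.2 and 30.5 in hag1. For root hair it was 789, 58.3, 129 and 204 in Col and 661, 76.7, 109 and 102 in hag1. The genes shared with these lists were PER64, SWEET11, SWEET12 and PP2-A1. Housekeeping genes had 0 of 4 lower and a median log2 ratio of 0.06. None of the marker genes of these 4 lists passed over the stages in edgeR (at an unadjusted p under 0.05, 7 of 21 of the endodermis list were lower, 5 of 19 for root hair, 13 of 19 for xylem and 3 of 8 for phloem, and 0 higher). The part of these cell types in the levels of the 200 genes was not tested. The fall after 2 weeks was not confined to root lists. Of shoot cuticle genes with at least 50 reads, 4 of 4 were at least 2-fold lower, with a median log2 ratio of -2.03. For shoot meristem and leaf genes 0 of 3 were lower and 1 was higher.

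The genes were spread over the 5 chromosomes, with 22.5% on chromosome 2 against 15.2% of the loci open to the rule. Neighbours within 20 kb formed 14 groups of 30 genes in all. They included the marneral cluster, EARLI1 with AZI1, UGT71C1 with UGT71C2 and the extensin genes AT3G54580 and HRGP1 with DJ1F. UGT71C1 and UGT71C2 differed after 2 weeks, at -1.34 and -0.18. The median transcript length of the 200 was 1330.5 bases, against 1646 for the loci open to the rule. Of the 200, 195 had 1 listed isoform, and 5 had 2.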

How the data were processed

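The deposited files give, for each TAIR10 transcript model, the count of unique reads, the RPKM and the percent of the model covered by reads, per the file headers; the build is from the submitters' processing notes, and for aligner, counter and use of strand the entry is not given in the sources used here. The authors' RPKM values are counts over model length and over the unique reads of that library, as a line-by-line recomputation showed. Values were summed per locus and missing loci set to 0. The deposited percent values were not used in any result.

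The genes and lists were chosen with earlier results of these data known. Counts were tested with edgeR 4.0.16 (quasi-likelihood, TMM scaling, Benjamini-Hochberg adjustment over all loci tested, threshold 0.05) in R 4.3.3, with DESeq2 1.42.0 and limma 3.58.1 as alternatives and a check on simulated data. In hag1 the callus libraries were tested against roots and 2 weeks on SIM, and the genotype was tested over the 4 stages with a term for stage. Ratios within a stage have no replicate check; their 95% intervals, and the floor of 3 reads (0.398 to 0.431 CPM), cover counting error only. Tables were handled with Python 3.11.15, pandas 2.3.3 and SciPy 1.17.1. Classes were sorted by words in the gene descriptions. All 200 genes matched a RefSeq gene. Promoter sequences of other genes are not reported here.

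Genes were named by rule: the 15 highest scores, the 3 highest in Col roots in each class, the 8 lowest and 8 highest ratios after 2 weeks, members of the fixed lists, genes next to the threshold, and HAG1. BCAT4, IPMI1, THI1, AT2G31790, AT4G14020, UGT71C1, UGT71C2, AT3G54580, HRGP1, AT4G28940 and genes said to be so in the text were added after their values were seen, as were the lists of aliphatic glucosinolate and triterpene genes. Only unique reads were counted, so levels of near-identical copies are uncertain. Alternatives covered scaling, the low-count filter, the test, the model, left-out libraries, fold thresholds and the choice of genes.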

Additional observations from a re-analysis of the deposited data

Results flagged for a closer look

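In hag1, 15 of the 200 genes had a lower level after 2 weeks than after 2 days on SIM, on TMM-scaled counts, while the choice of genes requires the opposite in Col. For 6 of them the 95% interval for counting error lay wholly below 0. The log2 difference in hag1 was -0.97 for the peroxidase gene AT5G66390, -0.75 for CYP71A16 of the marneral cluster and -0.67 for AT4G23680 of a lipid transport family. It was -0.64 for NLM1, a major intrinsic protein gene, -0.39 for AT2G02680, a C1 domain gene, and -0.26 for the glycosyltransferase family gene AT3G46700. With 1 library for each genotype and stage the difference between genotypes was not tested.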

How the results depend on the processing

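The genotype fit paired hag1 with Col by stage through its stage term. No pairing of replicates was possible, because the labels carry no replicate numbers and each genotype and stage has 1 library. Between callus and the other stages in hag1, DESeq2 called 748 loci and 118 of the genes where edgeR called 0; the share of genes lower at an unadjusted p under 0.05 ran from 33.5 to 71.0% when 1 library was left out. For the genotype over the stages, edgeR called 81 loci, 14 with total counts as scaling, 222 with no low-count filter, 4 with no stage term, and 0 to 34 when 1 library was left out; DESeq2 called 1228, and limma 2 with a pseudocount of 1 and 14 with 0.1. Of the genes, 2 were called lower, 1 with total counts, 39 by DESeq2, 0 by limma with either pseudocount, 0 with no stage term, 1 and 5 among the 100 and 400 highest scores, and 0 to 2 with 1 library left out. The share lower at an unadjusted p under 0.05 was 0.51% with no stage term. Regain in hag1 was 35% of genes at 4-fold. The share below Col in roots was 48.5% at 1.5-fold and 3.5% at 4-fold, on CIM 4.60% at 4-fold, after 2 days on SIM 17.0% at 1.5-fold and 4.0% at 4-fold, 15.2% and 11.8% with the 100 and 400 highest scores, and after 2 weeks 32.5% at 4-fold. Under the same rule in hag1 with the ratio read the other way, the share was 7.0% in roots, 4.72% on CIM and 4.0% after 2 weeks. In callus the balance of 2-fold counts reversed with the genotype that chose the genes, but the counts have unlike bases. Loci chosen in hag1 were counted over all 200 with no minimum of reads, genes chosen in Col only with at least 50. On CIM, 84 loci chosen in hag1 were at least 2-fold lower in hag1 than in Col and 14 higher. Among genes chosen in Col these were 19 and 27. After 2 days on SIM the counts were 51 and 23, against 7 and 36. With at least 50 reads in both choices, the share higher in hag1 was 4.72% on CIM and 9.15% after 2 days for loci chosen in hag1. For genes chosen in Col it was 31% and 36%. The share lower with that minimum is not given for loci chosen in hag1. The median log2 ratios were -0.65 against -0.23 on CIM, without a change of sign, and -0.32 against 0.23 after 2 days. No other result reversed, and the cause of these shifts was not tested. Leaving out a callus library for the regain, and reading regain in Col for the genes chosen in hag1, were added after seeing the data. Depth leaves few reads in callus, where ratios are least precise.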
